A study of Mus musculus with 6 samples.

Results

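The cytosolic ribosomal protein genes were described in group 3 innate lymphoid cells (ILC3s), lymphocytes of the gut wall that make IL-22 and IL-17. They were taken from a raw count table of 25075 gene symbols by name: symbols that begin with Rpl or Rps and a digit, together with Rplp0, Rplp1, Rplp2 and Rpsa, without the Rps6k kinases and without names that end in -ps and digits. This gave 95 genes, of which 46 encode proteins of the large subunit and 31 proteins of the small subunit. A further 11 are named as -like paralogues or retrogenes of such genes, and 7 rows are neither (Rps19bp1, Rps23rg1, Rps3a2, Rps3a3, Rpl32-ps, Rps4l-ps and Rps4x-ps). After a filter on low counts 85 of the 95 could be tested: all 46 large subunit genes, 30 of the 31 small subunit genes, 8 of the 11 paralogues and 1 of the other 7.

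Each library was built with Smart-seq2, which copies whole messages from little RNA, and started from 2 ng of RNA of 2000 sorted cells of the small intestine. All mice were on the B6 background and carried the floxed Batf allele (Batf fl/fl), and the sorted cells were lineage-negative, CD90.2-positive and KLRG1-negative. The labelled control group (n = 3) had no Cre, and the labelled Batf-deficient group (n = 3) carried PLZF-Cre. Batf is a transcription factor of the AP-1 family, and PLZF is made in precursors of innate lymphoid cells and in NKT cells, so that Cre acts where PLZF is or was made. The labels gave no age, sex, batch or pooling of animals.

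Ribosomes are built from ribosomal RNA and about equal copies of each ribosomal protein, and free ribosomal proteins are degraded, so cells make the proteins of both subunits together. Most of the genes carry a terminal oligopyrimidine (TOP) tract, a run of C and T that begins with a C at the start of the transcript, through which the kinase mTOR and the RNA-binding protein LARP1 set their translation. In lymphocytes the pool of ribosomes grows on activation and shrinks in rest.

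The libraries held 8228513 to 17334207 counts. Batf itself stood at 15.1, 15.3 and 18.9 CPM (counts relative to library size, after correction by TMM, the trimmed mean of M values) in the labelled control and at 38.2, 41.2 and 41.2 CPM in the Cre-positive group labelled Batf-deficient, higher in the group in which it should be deleted (log2 fold change 1.29, SE 0.16, adjusted p = 1.70e-05 by edgeR's quasi-likelihood test). With libraries scaled to 24 genes of innate lymphoid and T cells the same difference was -1.14. Counts outside the deleted part of the gene check nothing, and the table gives no counts per exon, so the groups are named by their labels throughout. Pancreatic acinar genes took 12.9% ± 0.223 (SD, n = 3) of the counts in the labelled control libraries and 0.00913% ± 0.00122 in the labelled Batf-deficient ones, and gut epithelial genes 2.22% ± 0.117 and 0.111% ± 0.00908. Heat shock genes went the other way, from 0.348% ± 0.00867 to 6.0% ± 0.223, and the list of 14 ILC3 genes, all higher, from 0.230% to 1.18%. A list of 10 T cell genes (8 higher, 1 lower) went from 0.0376% to 0.200%. Plasma and B cell genes went from 1.48% to 0.147%, myeloid genes from 0.130% to 0.0709%, and stromal and endothelial genes from 0.127% to 0.0135%. These lists moved with every comparison below, and their part in the results was not tested. Within a group, the closest pair was Batf-deficient replicates 1 and 2 (mean chi-square 2.36 per gene, where 1.0 would be sampling noise alone, against 14.8 to 24.2 for the other pairs). In bulk libraries fewer cells of a type and less RNA per cell cannot be told apart.

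The promoter windows of the genes the results turn on are given first, since the TOP tract begins at the start of the transcript. RefSeq promoter windows were found for 57 of the 77 subunit genes on GRCm38.p6 (mm10), and a tract was searched for on the sense strand only, as a C followed by at least 4 further C or T that begins within 5 bases of the annotated start. Each sequence below holds 15 bases before and 15 bases from the start, 5′ to 3′, with the tract in capitals. Rps27 and Rpl10 had the largest fold changes of their subunits when each gene's own row is read (with copies added they did not, as given below). Rps27l fell while Rps27 rose, and Rps27rt holds most of the sequence of Rps27. Rpl28 had the lowest fold change of the subunit genes' own rows, but not with copies added. Rpl27a had the longest tract (20 bases, which runs past the end of the window shown).
Rps27 (chr3:90213634-90213663, minus strand): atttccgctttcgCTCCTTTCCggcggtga
Rps27rt (chr9:114982725-114982754, minus strand): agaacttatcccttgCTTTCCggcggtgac
Rps27l (chr9:66946071-66946100, plus strand): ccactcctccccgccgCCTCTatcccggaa
Rpl10 (chrX:74270801-74270830, plus strand): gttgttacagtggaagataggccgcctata
Rpl27a (chr7:109519180-109519209, plus strand): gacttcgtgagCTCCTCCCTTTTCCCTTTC
Rpl28 (chr7:4792950-4792979, plus strand): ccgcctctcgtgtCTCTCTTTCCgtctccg

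A tract was found in 27 of the 57 subunit genes with a window (47.4%; 16 of 34 large and 11 of 23 small subunit genes), against 5718 of 27025 genes with a window (21.2%) and 17 of 69 mitochondrial ribosomal protein genes (24.6%). The search rests on the annotated start, and a window without a match says only that these letters are not there. Members with a tract had a median log2 fold change of 1.17 (26 of 27 higher) and members without one 1.13 (26 of 29 higher).

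Ribosomal protein genes took a larger share of the counts in the labelled Batf-deficient libraries. The 77 subunit genes held 3.34%, 3.6% and 3.98% of all counts in the labelled control libraries and 6.06%, 6.03% and 7.01% in the labelled Batf-deficient libraries, so the groups did not overlap. The means were 3.64% ± 0.325 and 6.37% ± 0.554 (SD, n = 3 each), a ratio of 1.75. Both subunits contributed: large subunit genes went from 1.99% ± 0.163 to 3.45% ± 0.270 and small subunit genes from 1.65% ± 0.162 to 2.92% ± 0.284. Leaving the acinar, epithelial and heat shock counts out of the totals gave 3.95%, 4.24% and 4.72% against 6.45%, 6.41% and 7.49%, a ratio of 1.58.

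Set against lymphocyte genes the order was the opposite. For each count of the 24 panel genes of innate lymphoid and T cells there were 19.2, 21.9 and 24.9 ribosomal protein counts in the labelled control libraries and 8.81, 8.89 and 10.1 in the labelled Batf-deficient ones, a ratio of 0.421. The panel itself took 0.166% ± 0.00679 of the counts in the first group and 0.686% ± 0.00692 in the second, and its genes had a median log2 fold change of 2.45 with TMM factors. The direction of the ribosomal protein genes therefore depends on what the libraries are scaled to, and each statement of higher or lower below is on the TMM scale unless the panel is named.

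**Figure D1:**
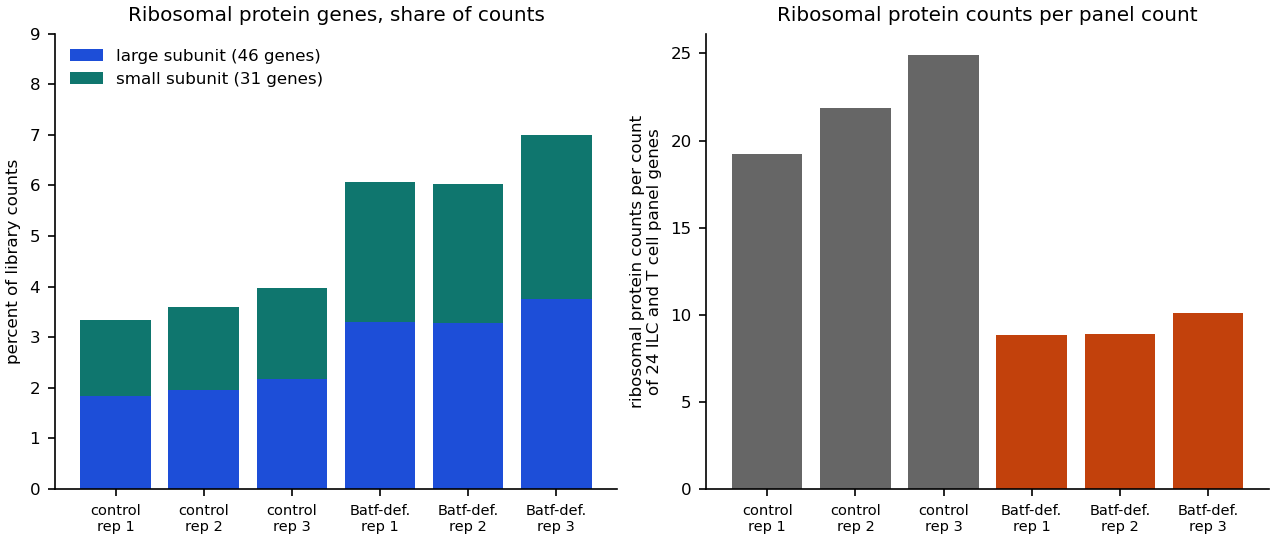
Left, percent of all counts in each library taken by the 46 large and 31 small subunit genes, stacked; the labelled Batf-deficient (Batf-def.) libraries stand at 6.03% to 7.01% and the labelled control libraries at 3.34% to 3.98%. Right, ribosomal protein counts divided by the counts of the 24 panel genes in the same libraries; here the order of the groups is turned.

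On the TMM scale 71 of the 76 tested subunit genes were higher in the labelled Batf-deficient libraries (edgeR, adjusted p under 0.05) and 0 were lower; at the same threshold 30.2% of all 15261 genes tested were higher and 34.1% lower. In 70 of the 76, every labelled Batf-deficient library stood above every labelled control library, as was so for 34.6% of all genes tested. Their median log2 fold change was 1.17 (quartiles 0.82 and 1.49), beside 0.02 for all genes, 47 of them were over 2-fold higher, and 75 of 76 lay above the median of all genes. With panel scaling 0 were higher and 72 lower, where 86.9% of all genes were lower and 1.99% higher. The ribosomal median was then -1.26 and that of all genes -2.41. The distance between the ribosomal median and that of all genes was 1.15 with TMM and with panel scaling, and 1.08 to 1.27 over all alternatives. A change of scaling moves all genes by nearly the same amount, so it could hardly change this distance.

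Large and small subunit genes moved by similar amounts. Of the large subunit genes 42 of 46 were higher, with a median of 1.14 and a range from -0.02 to 2.32. Of the small subunit genes 29 of 30 were higher, with a median of 1.20 and a range from 0.16 to 2.99. The ratio of large to small subunit counts was 1.24, 1.20 and 1.20 in the labelled control and 1.20, 1.20 and 1.16 in the labelled Batf-deficient libraries. The means, 1.21 ± 0.0244 and 1.19 ± 0.0217 (SD, n = 3), differed by about the spread between replicates, and the ranges overlapped. With 3 libraries against 3 an exact permutation test could not go below p = 0.10, and none was run on this ratio.

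**Figure D2:**
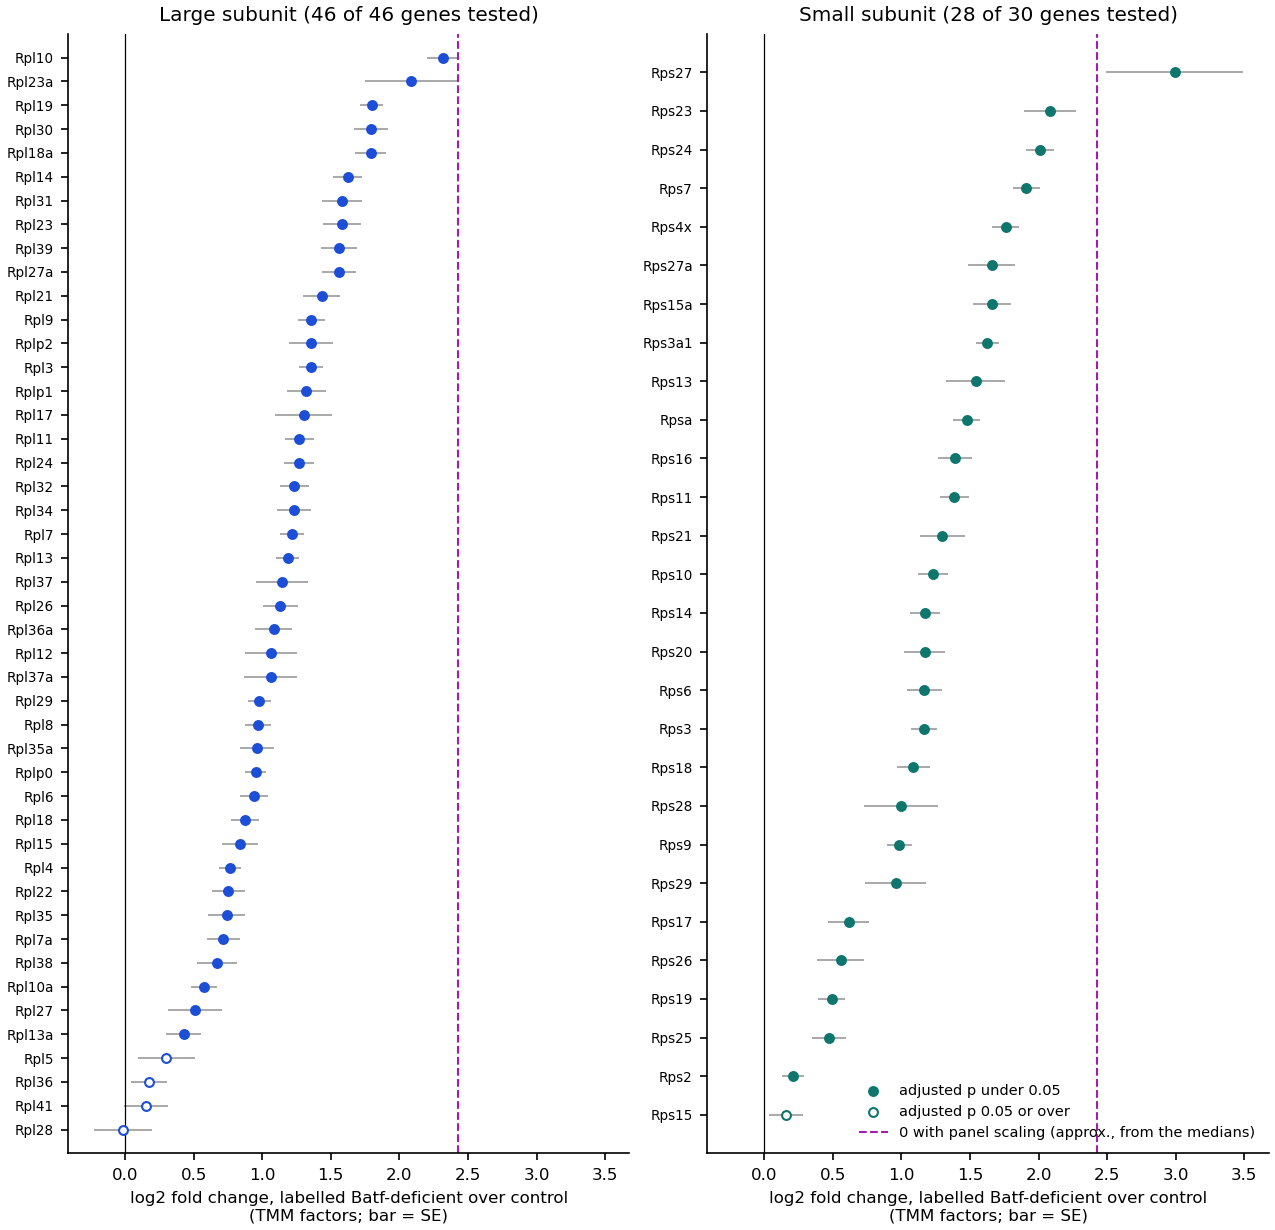
Log2 fold change of 74 of the 76 tested subunit genes (points) with its standard error (bars), large subunit left and small subunit right, ordered by value; filled points have an adjusted p under 0.05. All but Rpl28 lie above 0 on the TMM scale, and all but Rps27 lie left of the dashed line, which marks where 0 falls when libraries are scaled to the panel.

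The genes at the top of the large subunit were Rpl10, Rpl23a, Rpl19 and Rpl30. Rpl10, which joins the 60S particle late in its assembly and lies close to the catalytic center, stood at 98.4, 120 and 129 CPM in the labelled control and 600, 603 and 531 CPM in the other group (log2 fold change 2.32, SE 0.12, adjusted p = 7.11e-09). Rpl23a, a protein at the mouth of the exit tunnel, had 209, 127 and 307 CPM and then 983, 1003 and 744 CPM (2.08, SE 0.34, adjusted p = 0.00197). Neither gene's groups overlapped. Rpl19, which takes part in a bridge between the subunits, had a narrower spread, with 672, 668 and 705 CPM against 2419, 2357 and 2329 CPM (1.80, SE 0.08). Rpl30 had a log2 fold change of 1.80 (SE 0.12). With panel scaling Rpl10 and Rpl23a were at -0.12 and -0.35 and were not called, whereas Rpl19 and Rpl30 were both lower, at -0.63.

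The 4 large subunit genes that were not called were those at the bottom. Rpl28 stood at 173, 208 and 337 CPM in the labelled control libraries and at 226, 236 and 249 CPM in the labelled Batf-deficient ones, so the second group lay inside the range of the first (-0.02, SE 0.21, adjusted p = 0.951). This value rested on control replicate 3: without it the log2 fold change was 0.32 and was called. The own row of Rpl28 held 80.8%, 76.0% and 99.9% of its counts with named pseudogenes in the labelled control libraries. With those rows added Rpl28 was at 0.24 (adjusted p = 0.174). Rpl41, the smallest ribosomal protein, was at 0.15 (adjusted p = 0.419) and Rpl36 at 0.17 (adjusted p = 0.270). Rpl5, which carries 5S ribosomal RNA into the large subunit together with Rpl11, had 29.1, 23.8 and 31.1 CPM against 36.6, 43.4 and 24 CPM (0.30, SE 0.21, adjusted p = 0.228). Its partner Rpl11 had 261, 205 and 233 CPM against 563, 547 and 576 CPM and was higher (1.27, SE 0.10, adjusted p = 4.92e-07). The difference between these partners was not tested. Of the 50-base windows of the Rpl5 transcript 48.55% also occur in Gm15500, and of those of Rpl11 55.87% in Gm10288. Either row may therefore hold only part of its gene's reads.

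The 3 proteins of the stalk, the flexible arm of the large subunit that recruits elongation factors, were all higher. Rplp0, the base of the stalk, stood at 1802, 1778 and 1910 CPM in the labelled control group and at 3506, 3435 and 3671 CPM in the other (0.95, SE 0.08, adjusted p = 5.96e-07). Its partners Rplp1 and Rplp2, which form the tips, were at 1.32 (SE 0.14) and 1.35 (SE 0.16). Rplp0 thus lay below the median of the large subunit and both partners above it.

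In the small subunit Rps27 had the largest fold change and the widest spread of the subunit genes in the labelled control group. It stood at 60.8, 156 and 60.9 CPM there, and at 651, 617 and 949 CPM in the other group (2.99, SE 0.50, adjusted p = 0.00448). Its coefficient of variation of 59.5% in the labelled control group compares with a median of 15% over the 76 genes, and leaving out control replicate 2 moved its log2 fold change to 3.61. Rps23, a protein of the decoding center, followed at 2.08 (SE 0.19), then Rps24 with 378, 451 and 452 CPM against 1679, 1644 and 1841 CPM (2.01, SE 0.10) and Rps7 at 1.91 (SE 0.10). All 4 had groups that did not overlap.

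The lowest values of the small subunit were those of Rps15, Rps2, Rps25 and Rps19. Rps2, near the entry of the mRNA channel, is among the most abundant of all members and had 2099.6, 2051 and 2175 CPM in the labelled control group and 2385, 2331 and 2599.6 CPM in the other. Its groups did not overlap, but its log2 fold change of 0.21 (SE 0.08, adjusted p = 0.0403) lost the call under each of 9 alternatives, with adjusted p-values from 0.0821 to 0.363, and turned to -0.17 with library totals. Rps15 was at 0.16 and was not called (adjusted p = 0.292); without control replicate 3 it was at 0.30 and called (adjusted p = 0.0269). Rps25 and Rps19, the gene most often mutated in Diamond-Blackfan anemia, were at 0.47 (adjusted p = 0.00504) and 0.49 (adjusted p = 0.00103), and with library totals both stood within 0.12 of 0 and were not called. Without Batf-deficient replicate 3 Rps25 was at 0.27 (adjusted p = 0.0597).

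Among other small subunit genes with known roles, Rpsa, also known as a laminin receptor, had 723, 743 and 890 CPM against 2193, 2109.5 and 2251 CPM (1.48, SE 0.10). Rps6, the substrate of S6 kinase, had 331, 387 and 488 CPM against 866, 904 and 935 CPM (1.17, SE 0.13, adjusted p = 6.84e-06). Rps27a, made as a fusion with ubiquitin, was at 1.66 (SE 0.17). Fau, whose product carries the small subunit protein eS30, is not taken by the name rule. It stood at 129, 125 and 497 CPM against 452, 471 and 387 CPM, so 1 labelled control library lay above all labelled Batf-deficient ones (0.80, SE 0.67, adjusted p = 0.353). Without control replicate 3 the log2 fold change of Fau was 1.79 (adjusted p = 5.19e-07).

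Differences between the libraries of a group were shared by most of the genes. Control replicate 3 was the highest labelled control library for 62 of 76 genes and control replicate 1 the lowest for 68. Batf-deficient replicate 3 was the highest of its group for 60. The median member stood at 272, 331 and 395 CPM in the labelled control libraries and at 742, 729 and 830 CPM in the labelled Batf-deficient ones. The median coefficient of variation was 15% in the first group and 6.25% in the second, and 12 genes and 2 genes, respectively, exceeded 25%.

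Of the 8 tested paralogues 4 were higher, 2 lower and 2 not called, where 30.2% of all genes were higher and 34.1% lower. With near-identical copies added to their parents, which takes out the rows Rps27rt and Rpl37rt, 2 were higher and 2 lower. Rps27l, a paralogue of Rps27 that is a known target of p53, fell from 87.6, 120 and 122 CPM in the labelled control libraries to 39.4, 41.5 and 44.9 CPM (-1.39, SE 0.14, adjusted p = 3.92e-06). Its parent rose at the same time, so that Rps27l made up 59.0%, 43.4% and 66.6% of the counts of the pair in the labelled control and 5.70%, 6.30% and 4.52% in the labelled Batf-deficient libraries. Part of the counts of Rps27 stood in the row of its copy Rps27rt: against the sum of Rps27 and its copies, Rps27l made up 18.9%, 20.4% and 17.1% and then 3.18%, 3.32% and 2.59%. Rps27l lies at chr9:66946086-66949516 and Rps27 at chr3:90212522-90213651 (GENCODE M21 on GRCm38).

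Rps4l, annotated as a transcribed processed pseudogene at chr6:148354656-148355598, fell as well. It stood at 60.2, 52.8 and 40.9 CPM and then at 16.4, 16.4 and 15.4 CPM (-1.67, SE 0.17, adjusted p = 3.58e-06). Rps4x, its X-linked counterpart, had 697, 830 and 873 CPM against 2634.5, 2673 and 2825 CPM (1.76, SE 0.10), and the share of Rps4l in the pair went from 6.13% ± 1.74 to 0.591% ± 0.0425 (SD, n = 3). Rps27l and Rps4l were the 2 genes of the name rule that fell on the TMM scale, and with panel scaling all 8 tested paralogues were lower, as were 86.9% of all genes. Only 22.4% of the 50-base windows of the Rps27l transcript and 18% of those of Rps4l were found in another annotated gene, against 98.7% for Rps27.

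The other paralogues rose or were not called. Rpl22l1, which can replace Rpl22 in the ribosome, had 70.0, 93.8 and 91.2 CPM against 207, 214 and 155 CPM (1.17, SE 0.15, adjusted p = 2.59e-05), and Rpl22 111, 153 and 131 CPM against 220, 228 and 219 CPM (0.75, SE 0.12). The share of Rpl22l1 in that pair was 38.7%, 38.0% and 41.0% and then 48.4%, 48.4% and 41.4% (means 39.2% ± 1.56 and 46.1% ± 4.05). Batf-deficient replicate 3 thus stood close to control replicate 3. Rpl36al was at 0.70 (SE 0.13, adjusted p = 0.000643) beside 1.08 for Rpl36a, and Rpl7l1, a protein of ribosome assembly, at -0.11 (adjusted p = 0.576) beside 1.22 for Rpl7. Rpl7l1 stood at 44.9, 62.0 and 41.5 CPM against 44.8, 46.8 and 46.4 CPM, the second group again inside the range of the first.

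The retrogene rows were less certain. Of the 50-base windows of Rps27rt 91.1% also occur in Rps27, and of those of Rpl37rt 81.2% in Rpl37. Their counts may therefore be in part reads of the parent. Rps27rt had a log2 fold change of 0.70 (adjusted p = 0.0164) and Rpl37rt 0.56 (adjusted p = 0.0348), and the call was lost under 6 and 9 alternatives other than panel scaling, which turned both. For Rps27rt these included leaving out control replicate 1 (adjusted p = 0.0637) or Batf-deficient replicate 3 (adjusted p = 0.0703), and for Rpl37rt leaving out any library but control replicate 3 (adjusted p = 0.0621 to 0.151). Rps12l1 was at 0.36 (adjusted p = 0.283), and at 0.56 (adjusted p = 0.0152) without Batf-deficient replicate 2. Rpl39l, Rpl3l and Rpl6l did not pass the filter, with at most 0.673, 0.466 and 1.13 CPM in any library, a few counts each. Rps19bp1, whose product binds Rps19 and is no ribosomal protein, stood at 13.9, 18.9 and 17.7 CPM against 11.3, 12.8 and 16.3 CPM (-0.32, adjusted p = 0.222). The other 6 rows that encode no named subunit protein did not pass the filter, with at most 1.38 CPM.

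**Figure D3:**
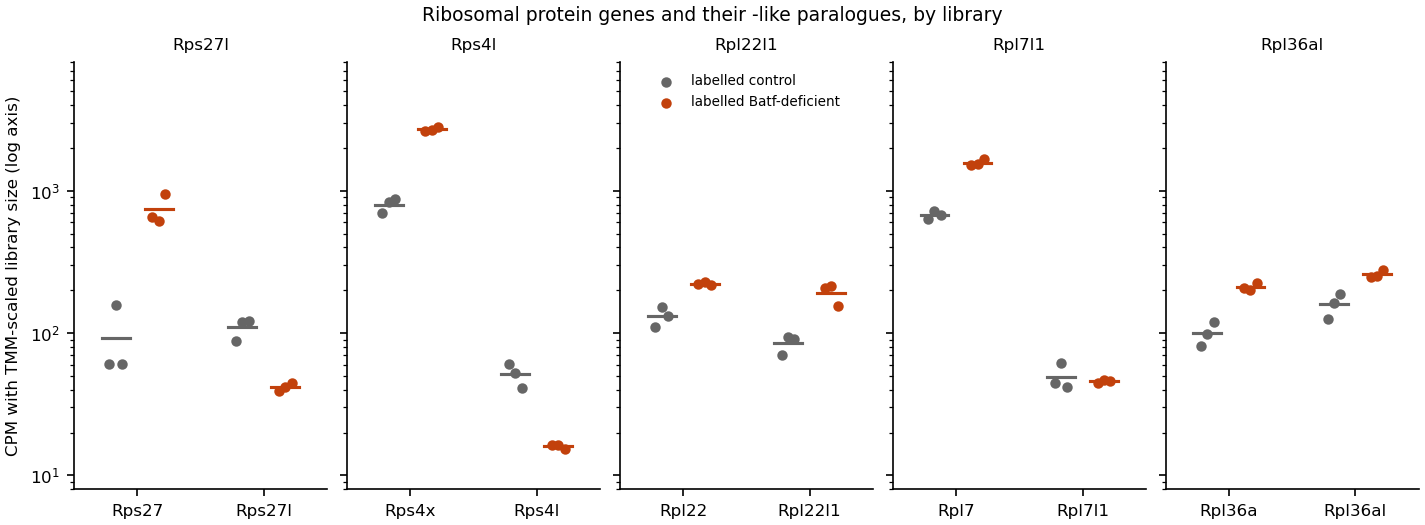
CPM on TMM-scaled library sizes (log axis) of 5 ribosomal protein genes and the paralogue named after each, 1 point per library and a line at each group mean, labelled control in gray and labelled Batf-deficient in orange. Rps27l and Rps4l are lower in all 3 labelled Batf-deficient libraries while Rps27 and Rps4x are higher; Rpl22l1 and Rpl36al rise with their parents.

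Counts of many members were divided among near-identical rows. Rps12 was listed at 0, 217 and 0 counts in the labelled control and at 0 in all 3 labelled Batf-deficient libraries, so it failed the filter, although it encodes a protein of every small subunit. The row Rps12l1 and the 11 rows named as pseudogenes of Rps12 held counts instead: summed with Rps12 they came to 260, 306 and 389 CPM against 903, 883 and 1059 CPM (1.57, SE 0.14, adjusted p = 7.94e-07). Summing was chosen after the counts had been seen. The table held 202 rows named as pseudogenes of subunit genes, of which 55 passed the filter. Together they took 0.399% ± 0.0258 of the counts in the labelled control and 0.856% ± 0.0928 in the labelled Batf-deficient libraries.

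Adding the rows named as pseudogenes or near-identical copies to each parent gave 72 higher of 77 genes, with a median of 1.19. Rows under other names were not added, so these sums do not bring together all copies. For example, Gm10288 holds 55.87% of the 50-base windows of the Rpl11 transcript and Gm12918 80.3% of those of Rpl13. The extremes moved inward: over the 76 genes tested either way the range was -0.02 to 2.99 for the genes' own rows and 0.16 to 2.08 for the sums, and 4 genes moved by over 0.5. Rps27 went from 2.99 to 1.52 (adjusted p = 2.63e-05) and Rpl10 from 2.32 to 1.23 (adjusted p = 1.15e-07). Rpl27, a protein near the exit tunnel, went from 0.51 to 1.48 and Rpl17, at the exit tunnel, from 1.30 to 2.08. With the sums the largest values were those of Rpl17 and Rpl23a (2.07) in the large subunit and Rps24 (2.02) in the small. Rpl10's own row held 10.1%, 10.7% and 12.4% of the counts of its family in the labelled control and 25.2%, 25.1% and 20.8% in the labelled Batf-deficient libraries, and the row Rpl10-ps3 held most of the rest, with 9281 to 25081 counts per library. Rows could also differ wholly between groups: Rpl17-ps9 had 0 counts in each labelled control library and 1450, 1427 and 1543 in the labelled Batf-deficient ones. Fold changes of single members with such copies, Rps27 and Rpl10 among them, are therefore uncertain, while the count of higher genes was almost the same with the sums.

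**Figure D4:**
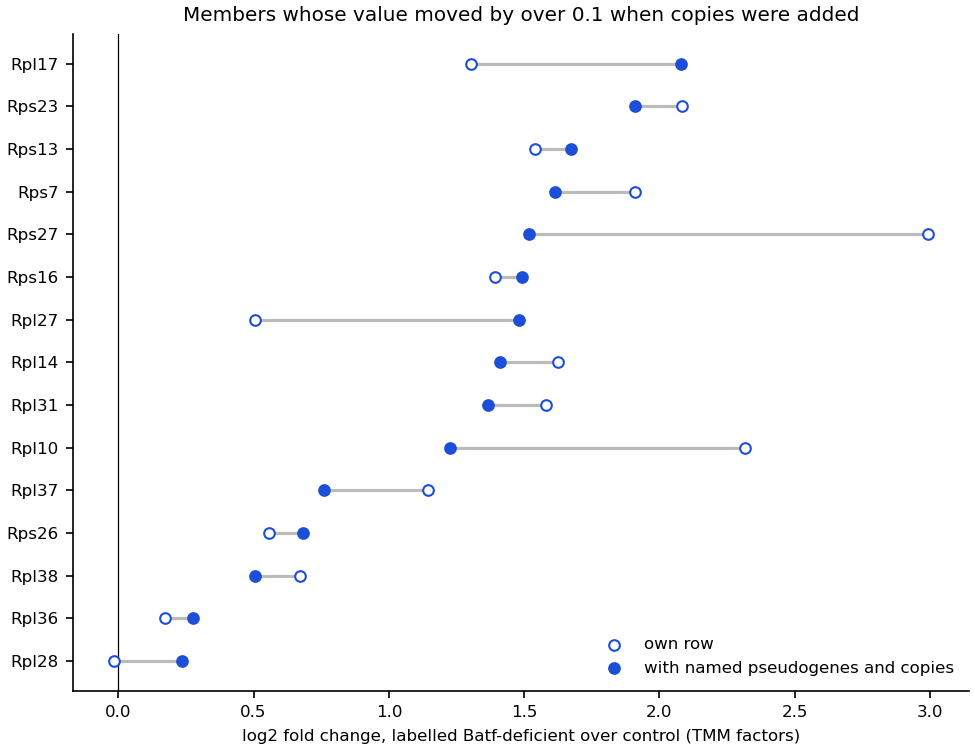
Log2 fold change of the 15 members whose value moved by over 0.1 when named pseudogenes and near-identical copies were added; open points are the gene's own row and filled points the sum. Rps27 and Rpl10 move down by over 1, Rpl27 and Rpl17 move up, and all the sums lie above 0.

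Members that share sequence with other genes had values like those of members that do not. In 45 of the 76 tested genes at least 50% of the 50-base windows of the transcript occur in another annotated gene. These had a median log2 fold change of 1.18 (43 of 45 higher), and the 31 others one of 1.17 (28 of 31 higher).

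Per kilobase of transcript, median levels were 410 CPM for the large and 532 CPM for the small subunit in the labelled control and 952 and 1270 CPM in the labelled Batf-deficient group. The order of the genes by level was largely kept, with r = 0.93 and rho = 0.86 across the 76 genes, which share the libraries and are not independent. By the mean of both groups the highest levels per kilobase were those of Rplp1 (1399 and 3499 CPM), Rpl13 (1480 and 3364 CPM) and Rps2 (2113 and 2443 CPM). The lowest were those of Rpl5 (13.7 and 17.0 CPM) and Rpl12 (9.96 and 20.9 CPM), although a ribosome holds these proteins in like number; in the small subunit it was Rps15a (56.1 and 177 CPM), for which the annotated transcript used was 5130 bases long. These levels depend on the transcript chosen and on the division of counts among copies.

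Across the 76 genes the log2 fold change had a correlation of r = -0.33 (rho = -0.32) with the GC content of the transcript and of r = 0.02 with its log2 length; over 15005 genes the correlation with GC was -0.12. Members below a GC content of 52.0% had a median of 1.29 and the others 0.98. Over the 15005 genes the same split gave medians of 0.15 and -0.20, so a difference of this kind was not particular to the members. Genes are not replicates, so these values only describe the set. The members lie on 19 chromosomes, with the most (14) on chromosome 7. The 4 X-linked members Rpl10, Rps4x, Rpl39 and Rpl36a were all higher, with a median of 1.66, beside 1.17 for the 72 on autosomes. Of those 72 members 67 were higher. All 435 tested X-linked genes had a median of 0.33, with 161 higher and 116 lower. With copies added Rpl10 was at 1.23, Rps4x at 1.76, Rpl39 at 1.56 and Rpl36a at 0.99. Xist, the RNA of the inactive X, stood at 0.90 ± 0.464 CPM in the labelled control and at 230 ± 50.1 CPM in the labelled Batf-deficient group (SD, n = 3), and every library held counts of Y-linked genes (1225 to 2669); the part of this in the X-linked values was not tested.

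Mitochondrial ribosomal protein genes, whose products form a separate ribosome, went the other way. Of 78 tested, 1 was higher and 56 were lower (30.2% and 34.1% of all genes), with a median of -0.70, and they took 0.384% ± 0.0146 and then 0.180% ± 0.00692 of the counts. Mrpl12 went from 138, 129 and 111 CPM to 32.8, 35.0 and 36.5 CPM (-1.85), and Mrpl54 was at -1.68. Mrpl13 was the 1 higher gene, at 0.50, and lost the call without Batf-deficient replicate 1 (adjusted p = 0.0790) or 2 (adjusted p = 0.0507). With panel scaling the mitochondrial median was -3.13, beside -1.26 for the cytosolic genes.

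The rest of the translation machinery was mixed. Of 23 tested genes of other TOP messages and of elongation, 15 were higher and 3 lower, beside 30.2% and 34.1% of all genes (median 0.73). Tpt1, a classical TOP message, had 807, 921 and 866 CPM against 3061, 3026 and 2824 CPM (1.78), and Eef1a1, the factor that brings tRNA to the ribosome, 2778, 2781 and 2848 CPM against 7867, 7812 and 7760 CPM (1.48). Eif4b and Hnrnpa1 were lower, at -0.48 and -0.49. Of 24 other initiation and termination factors 7 were higher and 5 lower (median -0.02), with Eif1 at 1.09 and Eif3m at 0.96, and Eif4g1 at -0.77 and Eif4h at -0.70. The share that was higher stands near the 30.2% of all genes, and the share that was lower below the 34.1%.

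Of 38 genes of ribosome assembly 11 were higher and 3 lower (median 0.19). The share of higher genes was close to the 30.2% of all genes, and the share of lower genes was below the 34.1%. Nucleolin (Ncl) was at 0.80 and Nop10 at 0.61, and Eif6, which keeps the free 60S subunit from joining, was at -0.69 and Nhp2 at -0.43. Of 19 genes of growth control 6 were higher and 7 lower (median -0.19), near the 30.2% and 34.1% of all genes. Among these Sesn1 and Maf1, which restrain mTOR and RNA polymerase III, were higher (1.51 and 1.15), and Eif4ebp1 and Larp1, which act on the translation of TOP messages, were lower (-1.42 and -0.96). With panel scaling each of these lists had 0 genes higher, where 1.99% of all genes were.

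**Figure D5:**
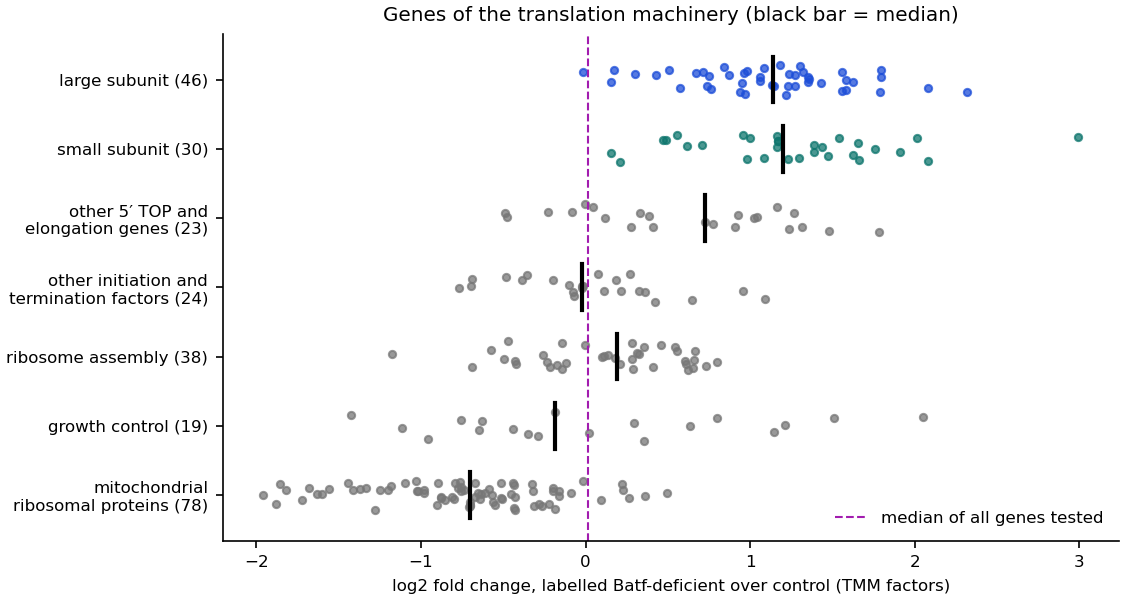
Log2 fold change (TMM scale) of each tested gene of the large and small subunits and of 5 other lists, 1 point per gene, with a black bar at each median and a dashed line at the median of all genes tested (0.02). The medians are 1.14 and 1.20 for the subunits, 0.73 for other TOP and elongation genes, between -0.19 and 0.19 for the next 3 lists and -0.70 for mitochondrial ribosomal proteins.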

How the data were processed

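The authors deposited raw counts of reads for each gene symbol in 1 table of all 6 libraries. Per the submitters' processing notes the build was mm10; for the aligner, counter, annotation and strand setting, the sources used here give nothing. Reads of near-identical, overlapping or antisense genes can therefore be in the wrong row. Smart-seq2 carries no molecular identifiers. The series design calls the 3 libraries of a group biological replicates.

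In R 4.3.3, edgeR 4.0.16 was fitted to the whole table (filterByExpr by group with a minimum count of 10, TMM, glmQLFit with robust=TRUE, glmQLFTest, two-sided), with group as the only term. Benjamini-Hochberg adjustment ran over 15261 genes, with a threshold of 0.05. The scripts were tested on simulated data. The simulation changed few genes, equally up and down, so it does not cover a difference in library content as large as that between these groups. Alternatives were DESeq2 1.42.0 and its size factors, limma 3.58.1 (voom), library totals, totals without acinar, epithelial and heat shock genes, scaling to a panel of 24 genes of innate lymphoid and T cells, no filter, a replicate block, each library left out, Batf-deficient replicates 1 and 2 summed, and pseudogenes added to the parent gene. The pseudogenes added were those named so after their parent. Adding near-identical copies as well was chosen after seeing the data. Gene models and lengths are from GENCODE M21 (GRCm38), where 94 of the 95 members matched.

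The members and all gene lists, the panel included, were chosen with earlier results of these data known. Named were all paralogues and their parents, the stalk proteins, Rpsa, Rps27a and Fau, the 4 highest and 4 lowest fold changes of each subunit, the highest and lowest levels per kilobase, the members that failed the filter, and of each other list the 2 called genes with the lowest p in each direction. Rpl11, Rps6, Rpl27 and Rpl17 were named after their values were seen. Some genes are not reported here.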

Additional observations from a re-analysis of the deposited data

How the results depend on the processing

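The 71 higher subunit genes numbered 67 to 73 with any 1 library left out (large subunit 40 to 43, small subunit 26 to 30), and the median log2 fold change was 1.06 to 1.30 (large 0.98 to 1.26, small 1.10 to 1.36). With a replicate block 69 were higher (41 large, 28 small) and 0 lower; Rpl23a (adjusted p = 0.0531) was among those that lost the call. Deviations of same-numbered libraries correlated at r = 0.01, 0.05 and 0.06, and those of differently numbered ones at -0.06 to 0.03. Each control replicate correlated best with the Batf-deficient library of its own number, but Batf-deficient replicate 1 correlated best with control replicate 2. All these values were near 0, so they cannot decide whether the replicate numbers pair the libraries.

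Scaling decided the direction. With panel scaling 0 subunit genes were higher and 72 lower (0 and 44 of the large, 0 and 28 of the small subunit), with medians of -1.26, -1.29 and -1.23 for all, large and small, and all genes at 304 higher and 13259 lower. With library totals 60 were higher (38 large, 22 small) and 0 lower, with medians of 0.80, 0.77 and 0.83, and all genes at 3052 higher and 6477 lower (median -0.36). With totals without acinar, epithelial and heat shock genes 56 were higher (35 large, 21 small) and 4 lower (2 large, 2 small). The medians were then 0.64, 0.62 and 0.68. Of all 15323 genes tested in that setting 2533 were higher and 7189 lower (median -0.52). The ratio of large to small subunit counts between groups, 0.979, was 0.959 with pseudogenes added.

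Of the 76 tested subunit genes 74 were above 0 with TMM and below 0 with panel scaling. Values with panel scaling of the named genes that turned were Rpl22l1 -1.27, Rpl36al -1.73, Rpl37rt -1.86, Rps12l1 -2.07, Rps27rt -1.73, Rpl3 -1.07, Rpl7 -1.21, Rpl10 -0.12, Rpl22 -1.68, Rpl36a -1.35, Rpl39 -0.87, Rps4x -0.67, Rplp0 -1.48, Rplp1 -1.11, Rplp2 -1.07, Rpsa -0.95, Rps27a -0.77, Rpl41 -2.27, Rpl36 -2.25, Rpl5 -2.13, Rpl30 -0.63, Rpl19 -0.63, Rpl23a -0.35, Rps15 -2.27, Rps2 -2.22, Rps25 -1.95, Rps19 -1.94, Rps7 -0.52, Rps24 -0.42, Rps23 -0.35, Rpl13 -1.24, Rps15a -0.77, Tpt1 -0.65, Eef1a1 -0.95, Ncl -1.63, Nop10 -1.82, Sesn1 -0.92, Maf1 -1.28, Eif1 -1.34, Eif3m -1.47, Mrpl13 -1.94, Rpl11 -1.16, Rps6 -1.26, Rpl17 -1.12, Rpl27 -1.93, Fau -1.64 and Batf -1.14. With totals without the 3 lists Rpl36 was at -0.35, Rps15 at -0.37, Rps2 at -0.32, Rps25 at -0.049, Rps19 at -0.034 and Mrpl13 at -0.031, and with library totals Rps2 was at -0.17. Rpl28 ran from -0.21 to 0.32 with 1 library left out. The call of Rpl27 (adjusted p = 0.0401) was lost with DESeq2, voom, both kinds of library totals, replicates 1 and 2 summed and any library but control replicate 3 left out. A count of 0 allows up to 3 counts, or 0.155 to 0.425 CPM in these libraries.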
